A study of Mus musculus with 6 samples.

Results

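The genes described here are 7 transporters of organic anions, hormones and nucleosides in the membranes of brain endothelial cells: Slco1a4, Slco1c1, Slco2b1, Slco3a1, Slc22a8, Slc29a1 and Slc29a4. They were chosen by gene symbol, with no measured value in the rule, and are 7 of 53465 genes in the count matrix, and all 7 passed the filter on low counts. The groups were mice treated with pentylenetetrazol (PTZ, a convulsant that blocks the GABA-A receptor) and mice treated with phosphate-buffered saline (PBS), with 3 libraries per group numbered 1, 2 and 4. All animals were males of 8 to 12 weeks with the alleles tie2-Cre, ai9 and rpl22HA/HA, and the RNA came from brain endothelial cells of the cortex. The Tie2 promoter drives Cre in endothelium and also in some blood cells, where the ai9 allele switches on a red reporter and rpl22HA/HA an epitope tag on a ribosomal protein. How the cells or their ribosomes were isolated, the PTZ dose and the interval before collection were not stated in the labels. Since the labels do not tie the libraries to separate animals, the p-values reflect only how much these libraries vary, and that variation may be technical.

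Brain endothelial cells form the blood-brain barrier, and what crosses them depends largely on carriers in their luminal and abluminal membranes. The Slco genes encode organic anion transporting polypeptides, which take up large amphipathic anions such as bile acids, conjugated steroids, thyroid hormones and many drugs without sodium. Slc22a8 encodes an organic anion exchanger that trades intracellular dicarboxylates for drugs and metabolites. Slc29a1 and Slc29a4 encode equilibrative carriers, the first for nucleosides such as adenosine and the second for monoamines and other organic cations.

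Gene counts summed to between 11107481 and 15406967 reads per library, and the 7 genes together held 18503 to 39453 of them, or 0.158% to 0.256% of a library. Levels are given as CPM, counts scaled to the library's gene total with a TMM factor, with the SD over n = 3 libraries per group. The labelled cell type was checked on Pecam1, an adhesion molecule of endothelium, which averaged 640.4 ± 76.4 CPM in PTZ and 551 ± 69.4 CPM in PBS, and on Cldn5, the main claudin of the barrier, which averaged 907 ± 545 CPM in PTZ and 810.5 ± 384 CPM in PBS. All 10 listed endothelial markers passed the low-count filter, as did all 12 of microglia and macrophages and all 6 of red cells, so passing it does not single out a cell type. The 10 endothelial markers summed to 9956 to 17980 CPM in PTZ and 10550 to 15220 CPM in PBS. Markers of other cells were present as well. The 6 red cell markers summed to 5779 to 11670 CPM in PTZ and 6579 to 10840 CPM in PBS. The summed level of 12 microglia and macrophage markers ranged from 1842 to 2669 CPM in PTZ and from 2653 to 3287 CPM in PBS, that of 10 pericyte and smooth muscle markers from 380.1 to 1132 CPM in PTZ and from 209 to 586 CPM in PBS, and that of 8 fibroblast markers from 84.3 to 263 CPM in PTZ and from 82.2 to 144 CPM in PBS. In such bulk libraries fewer cells of a type and less RNA per cell cannot be told apart.

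The sequences before the start sites of Slco1a4, Slco1c1 and Slc22a8 are shown because these genes had the highest levels per length of the 7. Slco1a4 (ENSMUSG00000030237) and Slco1c1 (ENSMUSG00000030235) lie in the same cluster of Slco genes on chromosome 6, where GENCODE M21 places them at 141805440 to 141856199 on the minus strand and at 141524368 to 141570177 on the plus strand of GRCm38. Slc22a8 (ENSMUSG00000063796) lies on chromosome 19 at 8591254 to 8611835 on the plus strand. Each line gives the 250 bases before the RefSeq start site (GRCm38.p6), 5′ to 3′ on the strand of the gene: chr6:141856221-141856470 on the minus strand for Slco1a4, chr6:141524104-141524353 on the plus strand for Slco1c1 and chr19:8592932-8593181 on the plus strand for Slc22a8. The RefSeq starts of Slco1a4 and Slco1c1 lie just outside the GENCODE M21 gene, so the first bases after them could not match a GENCODE transcript of the gene. That of Slc22a8 lies inside the gene, and no GENCODE transcript of Slc22a8 had the first bases after the RefSeq start near its own start. Capitals mark matches on either strand to GGAAG, the core bound by ETS factors, or to CTTTG, the core bound by TCF and LEF factors.
Slco1a4: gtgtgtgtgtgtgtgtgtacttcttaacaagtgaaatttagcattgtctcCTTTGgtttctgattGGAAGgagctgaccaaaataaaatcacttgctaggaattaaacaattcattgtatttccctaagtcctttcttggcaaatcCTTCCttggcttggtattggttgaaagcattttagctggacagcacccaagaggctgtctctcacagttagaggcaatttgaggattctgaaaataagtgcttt
Slco1c1: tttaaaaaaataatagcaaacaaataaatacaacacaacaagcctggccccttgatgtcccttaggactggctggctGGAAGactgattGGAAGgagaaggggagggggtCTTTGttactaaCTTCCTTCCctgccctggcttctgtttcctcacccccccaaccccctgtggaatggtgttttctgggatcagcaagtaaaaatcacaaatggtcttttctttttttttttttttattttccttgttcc
Slc22a8: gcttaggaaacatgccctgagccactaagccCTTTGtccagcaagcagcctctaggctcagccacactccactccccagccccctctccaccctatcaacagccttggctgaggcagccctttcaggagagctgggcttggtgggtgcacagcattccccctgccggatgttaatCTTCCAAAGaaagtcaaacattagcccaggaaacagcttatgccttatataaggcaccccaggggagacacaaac
GGAAG or its complement occurred 2 times before Slco1a4, 4 times before Slco1c1 and 1 time before Slc22a8, and 64.1% of the 32851 windows of this length in the RefSeq table hold it. CTTTG or its complement occurred 1 time, 1 time and 2 times in the same order, and 48.6% of all windows hold it. In Slc22a8 a match to each lies side by side and shares a base. The hormone receptor half-site AGGTCA, which 14.0% of windows hold, and the TATA box motif TATAAA, which 12.4% hold, had no match in these 3 windows. Only these exact letters were searched, and variants such as the tatataa in the Slc22a8 window were not counted. Such letters are common and a match is not a binding site.

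Among the 7 genes the levels spanned about 2 orders of magnitude once divided by exon length, and the genes formed a high and a low set. Slco1a4 averaged 128 ± 24.5 CPM per kilobase in PTZ and 128.5 ± 21.4 CPM per kilobase in PBS, and Slco1c1 averaged 124 ± 16.4 CPM per kilobase in PTZ and 123 ± 22.1 CPM per kilobase in PBS. This pair did not differ beyond their spread, and Slco1c1 was the higher of them in library 2 of both groups and in PBS 4. Slc22a8 followed at 83.8 ± 30.4 CPM per kilobase in PTZ and 86.8 ± 45.6 CPM per kilobase in PBS, with a range over libraries of 56.3 to 139 that overlapped both. Slco2b1 averaged 46.5 ± 7.97 CPM per kilobase in PTZ and 40.4 ± 5.84 CPM per kilobase in PBS, and its highest library, 55.65 CPM per kilobase, lay just under the lowest of Slc22a8. The low set began with Slc29a1 at 9.97 ± 1.66 CPM per kilobase in PTZ and 10.7 ± 2.13 CPM per kilobase in PBS. Slc29a4 averaged 4.22 ± 2.63 CPM per kilobase in PTZ and 3.57 ± 1.05 CPM per kilobase in PBS, and Slco3a1 averaged 1.43 ± 0.491 CPM per kilobase in PTZ and 0.986 ± 0.301 CPM per kilobase in PBS. The last pair overlapped, since the lowest library of Slc29a4 had 1.66 and the highest of Slco3a1 had 1.90 CPM per kilobase. Against the 13762 tested genes with a length, mean levels per kilobase stood at percentile 95.9 for Slco1a4, 95.8 for Slco1c1, 94.2 for Slc22a8, 89.9 for Slco2b1, 71.0 for Slc29a1, 49.8 for Slc29a4 and 25.02 for Slco3a1. The order of the 7 means was the same with the coding length in place of the exon length.

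**Figure D1:**
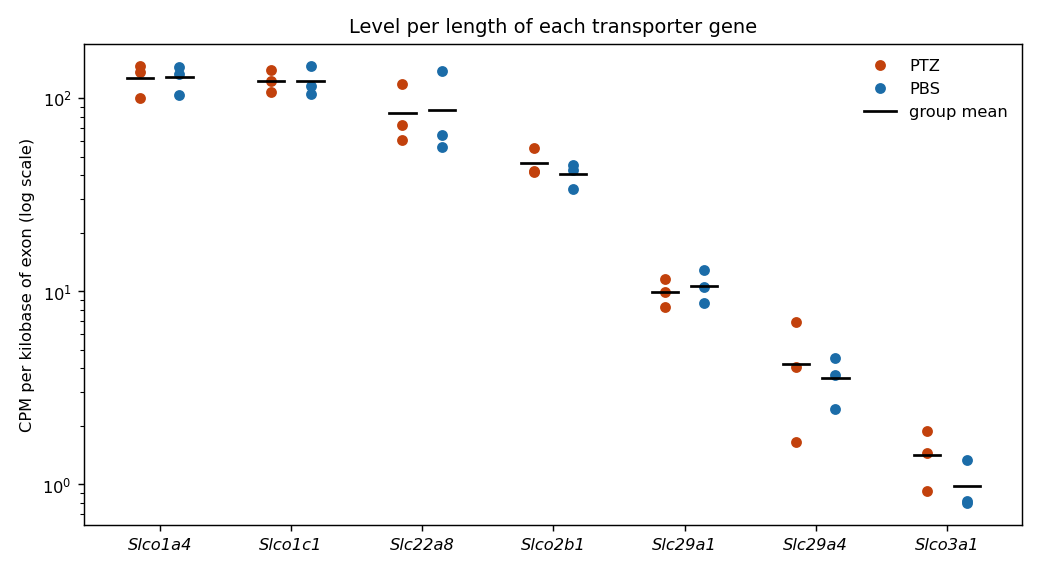
Level of each gene in CPM per kilobase of exon on a log axis, 1 point per library, PTZ in red and PBS in blue, with the group mean as a bar. Slco1a4 and Slco1c1 lie near 128 and 124, Slc22a8 and Slco2b1 below them, and Slco3a1 near 1 at the low end.

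The comparison of PTZ with PBS asks whether the carriers of the barrier differ after a convulsant. None of the 7 genes was called. In edgeR's quasi-likelihood test, fitted on 13768 genes, 0 of the 7 passed an adjusted p of 0.05, the same as for all genes tested, where 0% were called. At an unadjusted p under 0.05 stood 0 of the 7 and 7.21% of all genes, with 3.83% of all genes higher and 3.38% lower in PTZ. Over all genes 53 were called higher and 23 lower in PTZ by DESeq2, 37 higher and 20 lower by edgeR's exact test and 1 higher by limma-voom, with 0 of the 7 called by each. The groups overlapped for all 7 genes, while for 14.3% of all genes they did not. Of the 7 log2 fold changes 4 were positive, beside 52.7% of all genes tested, with a median of 0.011, against a median of 0.034 over all genes. What the data allow for each gene is given by the interval of its fold change.

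Slco1a4 encodes a carrier of bile acids, conjugated steroids and drugs such as digoxin and had the highest CPM of the 7 before division by exon length. It had 875, 644 and 944 CPM in PTZ libraries 1, 2 and 4, against 864, 671.5 and 937 CPM in PBS libraries 1, 2 and 4. Each PTZ library lay close to the PBS library of its own number, and library 2 was the lowest in both groups. The log2 fold change was -0.0055 (SE 0.27, 95% interval -0.60 to 0.59), so that changes beyond 0.658-fold or 1.51-fold lay outside the interval. The adjusted p in edgeR was 0.999, and the exact 2-sided permutation p over the libraries was 1.0. The sign turned without PBS 1 (0.028), PBS 4 (0.066) or PTZ 2 (0.10). Of the 50-base windows in Slco1a4 transcripts 1.61% also occur in transcripts of other genes, mainly its paralogs Slco1a5, Slco1a1 and Slco1a6, which held 7, 6 and 26 reads in all 6 libraries together.

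Slco1c1 encodes a carrier with high affinity for thyroxine and for some conjugated steroids. Its levels were 637, 559 and 729 CPM in PTZ libraries 1, 2 and 4, against 544, 601 and 765 CPM in PBS libraries 1, 2 and 4. Library 4 was the highest in both groups, and the PTZ libraries lay within the range of the PBS libraries. For this carrier the log2 fold change was 0.011 (SE 0.25, 95% interval -0.55 to 0.57), or 0.683-fold to 1.49-fold, with an adjusted p of 0.997 in edgeR. It turned negative without PBS 1 (-0.091), PBS 2 (-0.062) or PTZ 4 (-0.095). No 50-base window of its transcripts occurs in another gene.

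Slco2b1 encodes a carrier of sulfated steroids and of many oral drugs, and microglia of the mouse express it too. It had 251, 331.5 and 247.5 CPM in PTZ libraries 1, 2 and 4, against 202, 268 and 253 CPM in PBS libraries 1, 2 and 4. PTZ 2 was the highest library and PBS 1 the lowest, and the groups overlapped. PTZ over PBS gave a log2 fold change of 0.20 (SE 0.23, 95% interval -0.31 to 0.71), or 0.808-fold to 1.64-fold, with an adjusted p of 0.875 in edgeR. It was 0.087 without PBS 1 and 0.010 without PTZ 2. Of the 12 microglia and macrophage markers 10 had negative log2 fold changes in the same libraries (median -0.37), where 52.7% of all genes tested had positive ones. At an unadjusted p under 0.05 in edgeR, 3 of the 12 were lower in PTZ, beside 3.38% of all genes. Tmem119, a microglial membrane protein, averaged 106 ± 40.2 CPM in PTZ, against 196 ± 54.5 CPM in PBS. The part of these cells in the level of Slco2b1 was not tested. Slco2b1 lies on chromosome 7 at 99657804 to 99711340 on the minus strand, and 5.89% of its 50-base windows overlap antisense genes. Without a stated strand setting, reads of such genes cannot be told apart from those of Slco2b1.

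Slco3a1 encodes a carrier of prostaglandins and thyroxine, lies on chromosome 7 at 74275419 to 74554780 on the minus strand, and had the lowest level per length of the 7. It held 221, 79 and 197 reads in PTZ libraries 1, 2 and 4, against 112, 69 and 150 reads in PBS libraries 1, 2 and 4. In CPM these were 16.1, 7.82 and 12.3 in PTZ, against 6.97, 6.79 and 11.3 in PBS. Slco3a1 was higher in PTZ in every pair of equal library number, by 1.21, 0.20 and 0.12 on the log2 scale in pairs 1, 2 and 4. The share of all genes tested with this trait was not counted. PTZ 2 nevertheless lay below PBS 4. The log2 fold change was 0.53 (SE 0.44, 95% interval -0.45 to 1.51), the largest of the 7, with an adjusted p of 0.813 in edgeR and an exact 2-sided permutation p of 0.2, where 0.1 is the smallest possible with 3 libraries per group. The interval reached from 0.734-fold to 2.85-fold, and the log2 fold change was 0.27 without PTZ 1. PTZ 1, its highest library, also had the highest summed level of pericyte and smooth muscle markers, 1132 CPM against 1060, 380.1, 209, 314 and 586 CPM in PTZ 4, PTZ 2, PBS 1, PBS 2 and PBS 4. The summed levels of the other lists of cells outside endothelium were highest in other libraries. All 9 tested pericyte and smooth muscle markers had positive log2 fold changes (median 1.18), beside 52.7% of all genes tested. So did all 6 tested fibroblast markers (median 1.41). The fibroblast sum was 244, 84.3 and 263 CPM in PTZ 1, 2 and 4, against 82.2, 87.2 and 144 CPM in PBS 1, 2 and 4. The part of any of these cells in the value of Slco3a1 was not tested. PTZ 1 also had the largest share of reads that matched no counted gene feature, 9.34%, beside 2.99% to 5.19% in the other libraries.

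Slc22a8 encodes the organic anion exchanger through which endothelium and the choroid plexus clear drugs and metabolites of transmitters. It had 283.5, 237 and 462 CPM in PTZ libraries 1, 2 and 4, against 220, 254 and 544 CPM in PBS libraries 1, 2 and 4. Library 4 stood apart in both groups, and the highest library exceeded the lowest 2.47-fold, with the 3 PTZ libraries inside the range of the PBS libraries. PTZ over PBS gave a log2 fold change of -0.050 (SE 0.38, 95% interval -0.89 to 0.79), or 0.540-fold to 1.73-fold, with an adjusted p of 0.989 in edgeR. Its value was 0.44 without PBS 4 and -0.39 without PTZ 4, and it also turned positive without PTZ 1 (0.047) or PTZ 2 (0.10). Slc22a8 is a known gene of the choroid plexus and of the arachnoid barrier. In libraries 1, 2 and 4, markers of choroid plexus and ependyma summed to 7.66, 4.55 and 13.2 CPM in PTZ, against 10.5, 4.63 and 14.1 CPM in PBS. Ttr, the main product of choroid plexus, had 3 reads in all libraries. Arachnoid barrier markers summed to 43.7, 30.1 and 59.4 CPM in PTZ, against 53.8, 44.98 and 58.5 CPM in PBS. Both sums, like Slc22a8, were highest in library 4 of each group, but their tested markers did not share this order. Kl of the choroid plexus list and Dpp4 and Slc22a6 of the arachnoid list did, and Slc22a6 gave 22.3 CPM of the arachnoid sum in PTZ 4. Cldn11 of the arachnoid list was instead lowest in library 4 of each group. Klf5 was lowest in PTZ 4, Cdh1 was lowest in PBS 4, and Kcnj13 of the choroid plexus list was highest in PBS 1. The part of these cells in the level of Slc22a8 was not tested.

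Slc29a1 encodes the main equilibrative nucleoside carrier, which moves adenosine across endothelial and red cell membranes, and lies on chromosome 17 at 45585200 to 45599606 on the minus strand. It had 33.4, 39.9 and 46.7 CPM in PTZ libraries 1, 2 and 4, against 42.5, 34.7 and 51.8 CPM in PBS libraries 1, 2 and 4. The library of number 4 was again the highest in each group. The log2 fold change was -0.11 (SE 0.25, 95% interval -0.66 to 0.45), or 0.632-fold to 1.37-fold, with an adjusted p of 0.952 in edgeR, and it turned positive without PBS 4 (0.021) or PTZ 1 (0.011). Red cell markers, most of them globins, summed to 5779 to 11670 CPM in PTZ and 6579 to 10840 CPM in PBS, and their part in the level of Slc29a1 was not tested. An antisense gene shares 3.93% of its 50-base windows.

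Slc29a4 encodes a carrier of serotonin, dopamine and other organic cations and lies on chromosome 5 at 142692512 to 142722490 on the plus strand. Its reads were 65, 118 and 317 in PTZ libraries 1, 2 and 4, against 113, 132 and 141 in PBS libraries 1, 2 and 4. In CPM these were 4.74, 11.7 and 19.8 in PTZ, against 7.04, 13.0 and 10.6 in PBS. The PTZ group held both the lowest and the highest library, and the spread of 4.17-fold over the 6 libraries was the widest of the 7. The log2 fold change was 0.24 (SE 0.53, 95% interval -0.92 to 1.41), or 0.527-fold to 2.66-fold, with an adjusted p of 0.949 in edgeR, and it was -0.32 without PTZ 4. PTZ 4 also had the highest summed level of astrocyte markers, 184 CPM, beside 78.0 and 64.9 CPM in PTZ 1 and 2 and 137, 50.6 and 66.2 CPM in PBS 1, 2 and 4. Slc1a2 gave 102 CPM and Aldoc 29.6 CPM of the sum in PTZ 4, and Slc1a2 gave 96.6 CPM of that in PBS 1. Other astrocyte markers did not follow the sum, as Gfap was highest in PTZ 2, Slc1a3 in PTZ 1 and Gja1 in PBS 2. The sums of fibroblast and arachnoid barrier markers were highest in PTZ 4 too. Those of neuron and red cell markers were highest in PTZ 2, and that of pericyte and smooth muscle markers in PTZ 1. Microglia and macrophage markers were highest in PBS 1, and oligodendrocyte and choroid plexus markers in PBS 4. The part of any of these cells in the value of Slc29a4 was not tested.

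**Figure D2:**
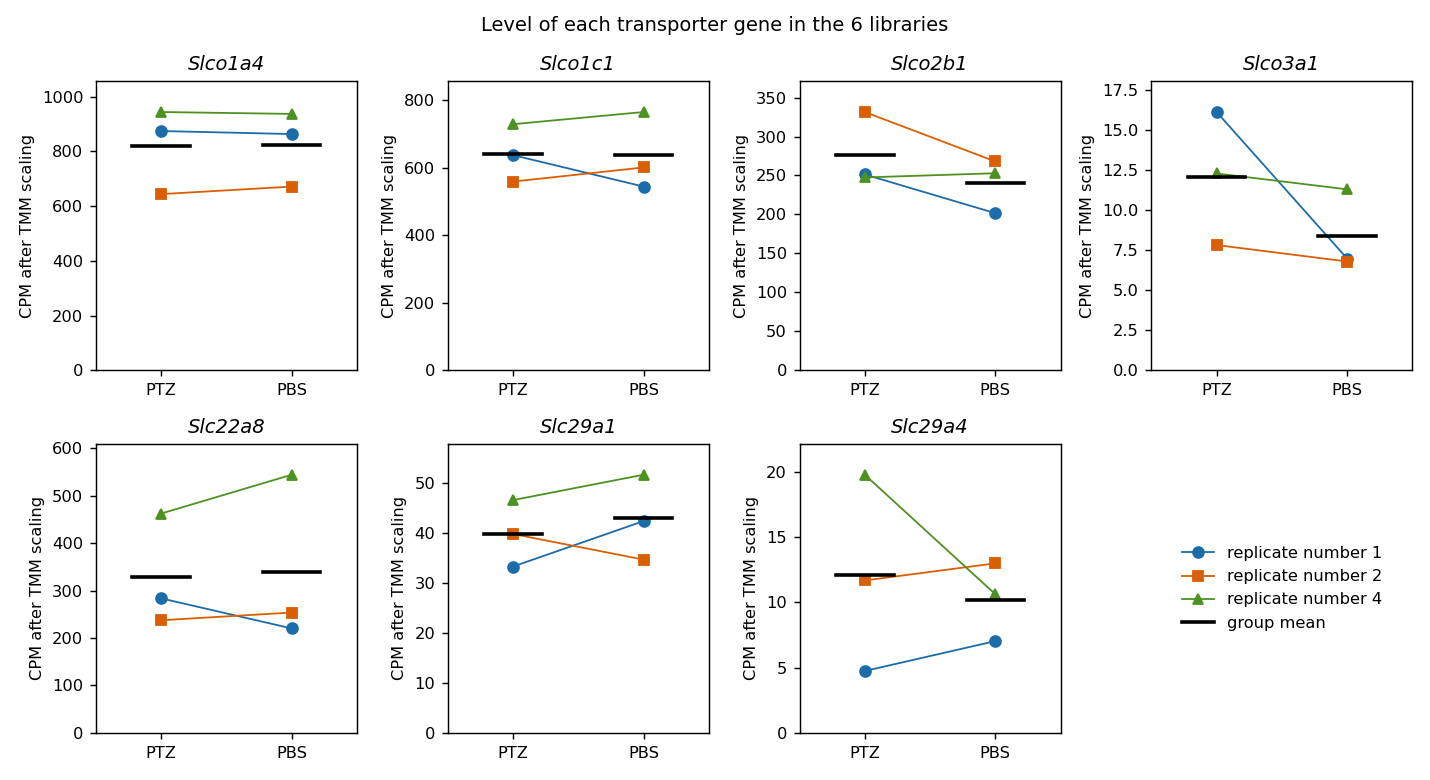
Level of each gene in CPM after TMM scaling, PTZ left and PBS right, with libraries of equal number joined by a line and the group mean as a black bar. The axes start at 0. For Slco1a4 the lines run nearly flat at 3 separate heights, and for Slc22a8 library 4 lies above the others in both groups.

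**Figure D3:**
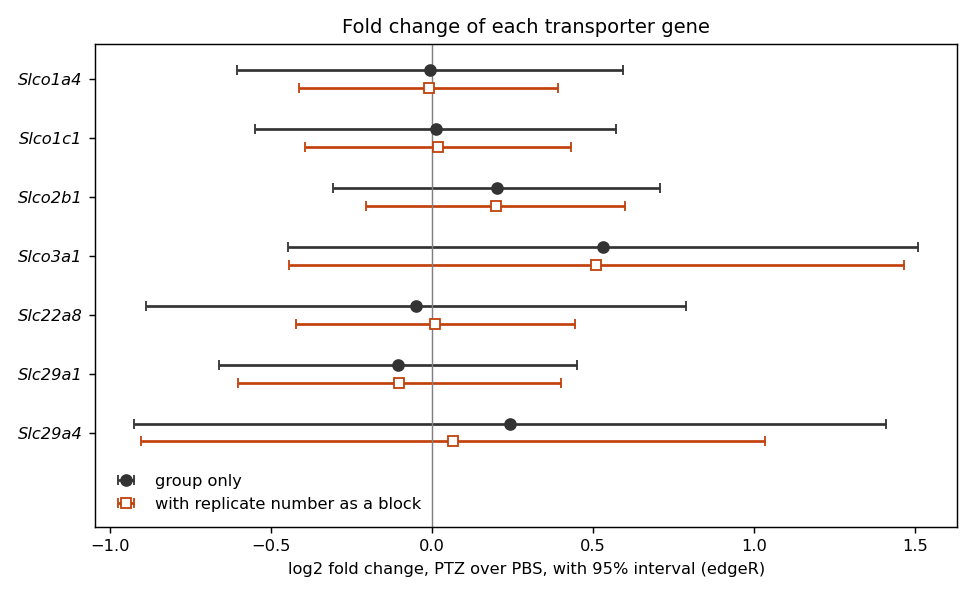
Log2 fold change of each gene, PTZ over PBS, with its 95% interval in edgeR, from the fit with the group only (filled circles) and with the library number as a block (open squares). All intervals include 0, and for Slc22a8 the interval is -0.89 to 0.79 without the block and -0.42 to 0.44 with it.

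For most of these genes the library number took a larger share of the variation than over all genes tested, and the group a smaller one. The variation of log2 CPM over the 6 libraries was divided into a part that goes with the group, a part that goes with the library number and a remainder, a description chosen after the values were seen. The number has more levels than the group, so its part tends to be the larger even where neither has an effect. For Slco1a4 the number took 99.3% and the group 0.055%. For Slc22a8 the number took 93.3% and the group 0.013%, and for Slco1c1 the number took 83.2% and the group 0.24%. The number took 77.6% for Slc29a4, 69.2% for Slc29a1, 63.1% for Slco2b1 and 41.1% for Slco3a1, where the group took 30.4%. The median over the 7 genes was 77.6% for the number and 0.24% for the group, beside 44.7% and 15.9% over all genes tested. The 7 genes are not independent of each other, as log2 CPM of Slco1c1 and Slc22a8 correlated at a Pearson's r of 0.981. Slco1a4 differed within pairs by 0.019, -0.060 and 0.011 on the log2 scale in pairs 1, 2 and 4, whereas its highest library exceeded its lowest 1.47-fold. With the number as a block in edgeR, the SE of the log2 fold change was 0.19 for Slc22a8, beside 0.38 without the block, 0.18 for Slco1a4, beside 0.27, and 0.42 for Slco3a1, beside 0.44. Log2 fold changes in that fit were -0.010 for Slco1a4 (95% interval -0.41 to 0.39), 0.018 for Slco1c1 (-0.40 to 0.43), 0.20 for Slco2b1 (-0.20 to 0.60), 0.51 for Slco3a1 (-0.45 to 1.47), 0.011 for Slc22a8 (-0.42 to 0.44), -0.10 for Slc29a1 (-0.60 to 0.40) and 0.064 for Slc29a4 (-0.90 to 1.03), and 0 of the 7 were called.

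**Figure D4:**
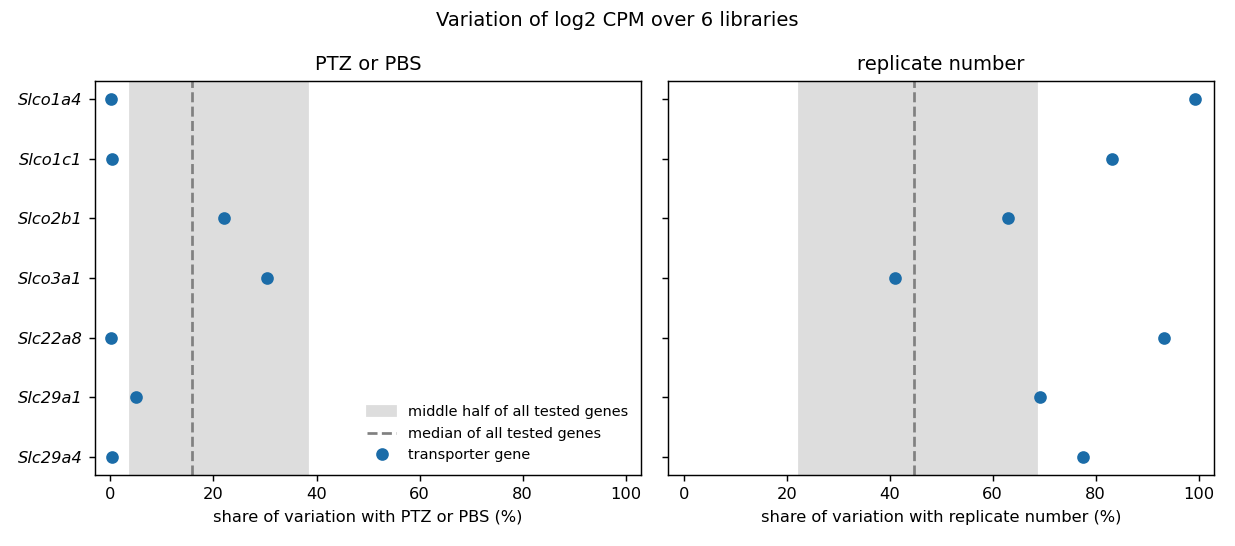
Share of the variation of log2 CPM over the 6 libraries that goes with PTZ or PBS (left) and with the library number (right), 1 point per gene. The dashed line is the median and the grey band the middle 50% of all tested genes. For Slco1a4 the shares are 0.055% and 99.3%.

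Of the 6 venous markers 4, Nr2f2, Vwf, Ackr1 and Ephb4, were highest in library 2 and lowest in library 4 of both groups, while Slc38a5 was highest in library 4 and Il1r1 in library 1. The venous gene Ackr1, a chemokine receptor that does not signal, had 763.5, 3640 and 141 CPM in PTZ libraries 1, 2 and 4, against 729, 2786 and 200.5 CPM in PBS libraries 1, 2 and 4. Library 2, where Slco1a4 was lowest, was thus the highest for Ackr1 in each group, and library 4 the lowest. The capillary gene Car4, a carbonic anhydrase, had 403, 342 and 773 CPM in PTZ libraries 1, 2 and 4, against 459, 441 and 1036 CPM in PBS libraries 1, 2 and 4, with library 4 highest in both groups. The 6 capillary markers did not share an order: 2 were highest in library 4 of both groups, Spock2 was highest in library 2 and Rgcc in library 1, Tfrc was lowest in library 4, and Mfsd2a kept no order. Of the 7 arterial markers 2 were highest in library 2 of both groups, 2 in library 4 and 1 in library 1. The 6 venous markers summed to 3820, 8124 and 2748 CPM in PTZ, against 3867, 6639 and 2978 CPM in PBS. The 6 capillary markers summed to 1380, 1909 and 2414 CPM in PTZ, against 1363, 1706 and 2242 CPM in PBS, with most of each sum from Spock2 and Car4. The part of vessel type in the levels of the carriers was not tested.

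The other carriers and partners of these pathways were given by 5 lists, and none of their tested genes was called in edgeR's quasi-likelihood test. Of 11 other Slco genes with a row 2 were tested. Slco2a1, the prostaglandin carrier, averaged 16.3 ± 8.83 CPM in PTZ and 18.0 ± 5.70 CPM in PBS, for a log2 fold change of -0.15 (SE 0.43), a value that turned positive without PBS 1 (0.14), PTZ 1 (0.081) or PTZ 4 (0.033). Slco4a1, in human a carrier of thyroid hormones, averaged 1.79 ± 1.31 CPM in PTZ and 0.335 ± 0.422 CPM in PBS, for a log2 fold change of 2.35 (SE 1.29) from 94 reads in all, which was 1.76 without PBS 4 and 4.15 without PBS 1. Of 25 other organic ion carriers of the Slc22 and Slc47 families 8 were tested, with a median log2 fold change of 0.22, and 1 stood lower in PTZ and 0 higher by an unadjusted p of 0.05, beside 3.38% lower and 3.83% higher among all genes. That gene, the carnitine carrier Slc22a21, averaged 0.804 ± 0.765 CPM in PTZ and 3.83 ± 1.26 CPM in PBS, with all PTZ libraries below all PBS libraries, as in 1 of the 8 genes against 14.3% of all genes without overlap, and an adjusted p of 0.687 in edgeR. Slc22a6, an organic anion exchanger best known from the kidney, averaged 9.41 ± 11.2 CPM in PTZ and 5.18 ± 1.51 CPM in PBS, where PTZ 4 alone had 22.3 CPM. Its log2 fold change of 0.87 (SE 0.81) was -0.80 without that library.

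Of 17 genes of nucleoside transport and adenosine handling 10 were tested, with a median log2 fold change of -0.41. Their values were positive for 2 genes, where 52.7% of all genes tested had positive ones. By an unadjusted p of 0.05, 1 stood higher in PTZ and 1 lower, beside 3.83% and 3.38% of all genes. Nt5e, the enzyme that makes extracellular adenosine from AMP, averaged 2.89 ± 2.22 CPM in PTZ and 0.470 ± 0.249 CPM in PBS, for a log2 fold change of 2.57 (SE 0.99, adjusted p of 0.655 in edgeR). The lysosomal nucleoside carrier Slc29a3 averaged 24.9 ± 10.8 CPM in PTZ and 43.1 ± 6.92 CPM in PBS, for a log2 fold change of -0.79 (SE 0.32, adjusted p of 0.690 in edgeR). These were the 2 of 10 genes whose groups did not overlap, beside 14.3% of all genes. The value of Nt5e ranged from 1.76 to 2.98 and that of Slc29a3 from -1.20 (without PTZ 4) to -0.56 when single libraries were left out. Of 21 genes of thyroid hormone transport, conversion and reception 15 were tested, with a median log2 fold change of 0.27. Of these 15, 11 had positive values, beside 52.7% of all genes tested. The coactivator gene Ncoa1 averaged 82.7 ± 8.53 CPM in PTZ and 55.5 ± 4.99 CPM in PBS, for a log2 fold change of 0.57 (SE 0.21, adjusted p of 0.648 in edgeR), and the receptor gene Thra averaged 102 ± 18.0 CPM in PTZ and 64.8 ± 17.1 CPM in PBS, for a log2 fold change of 0.65 (SE 0.25, adjusted p of 0.654 in edgeR). These were the 2 of 15 genes at an unadjusted p under 0.05, beside 7.21% of all genes, and the 2 with no overlap between the groups, beside 14.3% of all genes.

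Of 19 efflux pumps and conjugating enzymes with a row 13 were tested, with a median log2 fold change of -0.14. At an unadjusted p under 0.05 in edgeR stood 0 of the 13, beside 7.21% of all genes. Abcc5, a pump of cyclic nucleotides and organic anions, averaged 37.4 ± 10.9 CPM in PTZ and 24.2 ± 4.54 CPM in PBS, for a log2 fold change of 0.63 (SE 0.30). Abcb1b, a drug efflux pump, averaged 3.49 ± 2.83 CPM in PTZ and 0.944 ± 0.734 CPM in PBS, for a log2 fold change of 1.86 (SE 1.03), which was 1.121 without PTZ 1 and 2.67 without PBS 1.

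**Figure D5:**
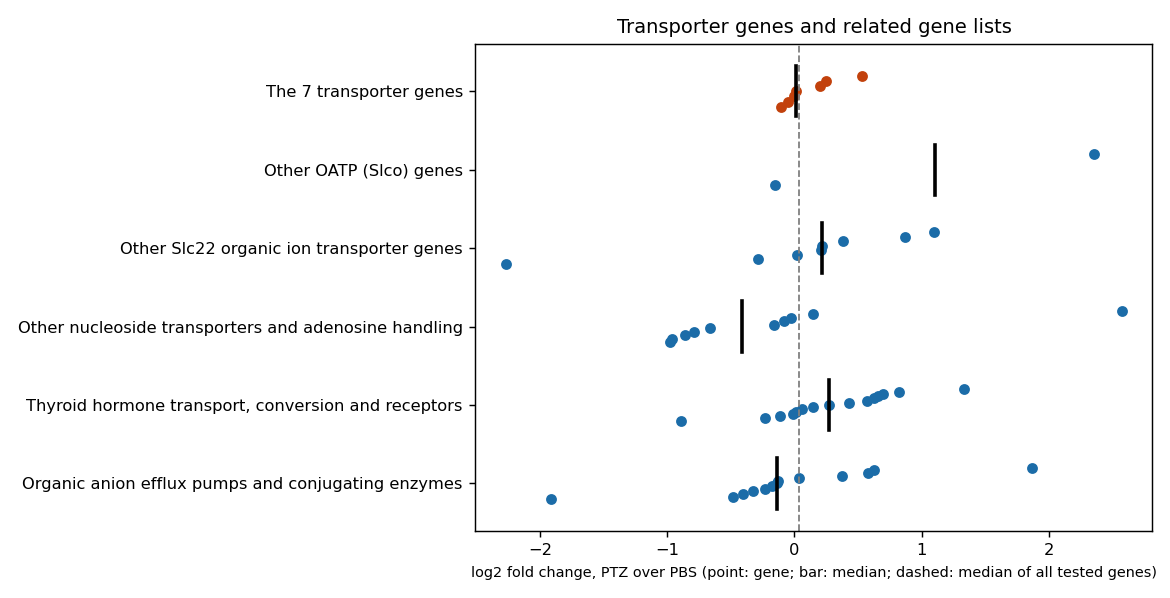
Log2 fold change, PTZ over PBS, of the 7 transporter genes (red) and of the tested genes of the 5 related lists (blue), with each median as a black bar and the median of all tested genes, 0.034, as a dashed line. The transporter genes lie between -0.11 and 0.53, and the widest values belong to genes of low level such as Slc22a21 and Nt5e.

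The genes most like each carrier in their pattern over the 6 libraries were named by Pearson's r of log2 CPM among 10096 genes with a mean of at least 5 CPM, as a description only. They were Ttc5, Yaf2 and Maoa for Slco1a4 (0.992, 0.989 and 0.982), and Plpbp, Nmt2 and Canx for Slco1c1 (0.989, 0.986 and 0.980). Canx, an endoplasmic reticulum chaperone, came first for Slc22a8 (0.996), before Mcc (0.989) and Cenpc1 (0.986). For Slco2b1 they were Card10, Dctn4 and Ftl1-ps1 (0.999, 0.985 and 0.978), for Slco3a1 Ddx60, Hipk1 and Cachd1 (0.993, 0.991 and 0.991), for Slc29a1 Bpnt1, Cyb5d2 and Tmem9 (0.988, 0.983 and 0.978), and for Slc29a4 Fads1, Serf1 and Arf3 (0.992, 0.987 and 0.986). With 6 libraries, 61 to 171 genes reached an r over 0.9 with any one carrier.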

How the data were processed

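Raw counts of reads for each Ensembl gene were deposited by the authors in 1 matrix, and with it, for each library, a scaled signal that equals the count divided by 1 factor per library, per the file headers and values. GRCm38 is the build, and TopHat2 2.1.1, HTSeq, CASAVA and edgeR are the tools, listed without roles in the submitters' processing notes. Neither the annotation release nor the strand setting was found in these sources. The 5 rows that name no gene held 16.1% to 22.9% of reads and stayed out. From the counts, filterByExpr in edgeR 4.0.16 (R 4.3.3; minimum count 10 and total 15) retained 13768 of the 34777 genes that had any read. TMM factors ran from 0.864 to 1.14, and the group effect was tested 2-sided by edgeR's quasi-likelihood test, adjusted after Benjamini-Hochberg across all retained genes. Alternatives used DESeq2 1.42.0, limma-voom (limma 3.58.1), the edgeR exact test, other scalings, no filter, the replicate block and each library left out. The fold-change estimates of the test were checked on counts simulated without an effect of the library number, and no error rate from that check is used here. The SE came from the fold change and its statistic, and intervals from the t distribution at 95%. Exon lengths and coordinates came from GENCODE M21, start sites from RefSeq (6 of 7 genes had an entry). Symbols matched 53274 IDs and not 191.

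Titles number the libraries 1, 2 and 4 in both groups. Departures from each group's mean correlated, over genes, at 0.167, 0.197 and 0.217 between libraries of equal number and at -0.127 to -0.062 between others, so the numbers were taken as a sign of pairing. Positive values within pairs force negative ones elsewhere. The main fit and the permutation test leave the number out, and a second fit has it as a block. The biological coefficient of variation was 0.470. The 7 genes, the lists and the tests were chosen with earlier results of these data known. Of each list, the 2 tested genes of smallest unadjusted p were named, as none passed the adjusted threshold, and Tmem119, Ackr1, Car4 and Ttr were chosen after their values were seen. Symbols Slco1a7, Slco1a8 and Sts matched no gene in the symbol table used and were not analysed here.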

Additional observations from a re-analysis of the deposited data

How the results depend on the processing

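None of the 7 genes and none of the list genes passed an adjusted p of 0.05 under any of the 17 alternatives, the replicate block in edgeR, DESeq2 and limma-voom among them, and the lowest adjusted p of a member was 0.558, for Slco3a1. Over all genes, 0 higher and 0 lower in the main test became 53 and 23 in DESeq2, 37 and 20 in the edgeR exact test, 1 higher in limma-voom, and 77 and 44 without the low-count filter. With the replicate block they became 130 and 77 in DESeq2 and 11 and 2 in limma-voom, and the block in edgeR changed no call. Without single libraries there were 0 to 8 genes higher, 8 of them without PBS 2, and 0 lower. The log2 fold changes of Slco2b1 and Slco3a1 stayed positive in all 17 alternatives, with values of 0.010 (without PTZ 2) to 0.27 for Slco2b1 and 0.27 (without PTZ 1) to 0.78 for Slco3a1 when single libraries were left out. Those near 0 changed sign. Slco1a4 was 0.036 on library totals. Slco1c1 was -0.028 with upper quartile scaling, -0.052 with the authors' scaling and -0.030 without the filter. Slc22a8 was 0.0011 in limma-voom, 0.00075 on library totals, and with the replicate block 0.011 in edgeR, 0.0029 in DESeq2 and 0.010 in limma-voom. Without single libraries the values ranged from -0.17 to 0.10 for Slco1a4, -0.095 to 0.13 for Slco1c1, -0.39 to 0.44 for Slc22a8, -0.27 to 0.021 for Slc29a1, -0.32 to 0.63 for Slc29a4, -0.73 to 0.14 for Slco2a1, -0.80 to 1.32 for Slc22a6 and -0.46 to 0.58 for Cldn5. The cause of these shifts was not tested.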
